A study of Rattus norvegicus with 93 samples.

Results

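The oligodendrocyte precursor genes Pdgfra, Cspg4, Olig1, Olig2, Sox10, Gpr17 and Bcas1 were followed across brain tissue of outbred rats. They were chosen by name, and all 7 have a row among the 38354 genes of the expression table and passed the filter on low values that left 18749 genes. Polyadenylated RNA came from the rostromedial tegmental nucleus (RMTg), an inhibitory brainstem nucleus that projects to midbrain dopamine neurons, in a cohort assembled for genetic work on avoidance learning and addiction. All 93 samples carry 1 label group, outbred rats with tissue RMTg, and no treatment, genotype, sex or age distinguishes them, so the variation between libraries was the only contrast. Nothing in the labels says that each library came from a different animal, and the p-values measure the spread between these libraries.

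Of 92 libraries with values, 49 were used. In the others 1 or 2 features took a large share of the counts: LOC120093067 and Zfp532 took over 10% together in 32 libraries, and Nif3l1 over 20% in 11. Estimated counts ranged from 9.55 to 50.2 M (M, 1000000 counts) per used library, with a median of 19.2 M, and 23690 to 28273 genes were above 0. Sample identifiers fall into number series, named B to F here, which held 7, 16, 12, 7 and 7 of the 49 libraries. The labels do not say what a series means. Libraries are called by their number in accession order. Libraries 63, 62, 71, 45 and 44 (series C, C, D, C and C) stood apart, with a median correlation of 0.951 to 0.968 with the other libraries, against 0.969 to 0.982 for the rest. The main counts and pairs are given with and without them.

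Oligodendrocyte precursors divide and move through the brain, leave the cell cycle, become newly formed oligodendrocytes and finally wrap axons in myelin. Precursors respond to platelet-derived growth factor through the receptor encoded by Pdgfra and carry the chondroitin sulfate proteoglycan NG2, encoded by Cspg4. Olig1, Olig2 and Sox10 encode transcription factors that specify the lineage and remain in use in myelinating cells. Gpr17, a G protein-coupled receptor, and Bcas1 are known for the committed and early myelinating stages between precursor and mature cell. In bulk tissue, fewer cells of a type and less RNA per cell cannot be told apart.

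Positions were read as the expression table gives them, and those of all 7 genes equal an end of the gene of that symbol in the RefSeq gene table (GRCr8), as did those of 38272 of 38278 matched genes. Olig1 lies at 11:44000450 and Olig2 at 11:43961585, 38865 bases apart. Of all pairs among the 7 genes, these neighbours had the closest relation, described below. Pdgfra lies at 14:33408604, Cspg4 at 8:66160942, Sox10 at 7:112615097, Gpr17 at 18:23857381 and Bcas1 at 3:179637800. The 250 bases before the start of Olig2 (a factor of the closest pair), Cspg4 (a precursor gene in no called pair) and Gpr17 (which followed Sox10) are shown from the RefSeq promoter table (build GRCr8), 5′ to 3′ on the gene's strand. Capitals mark the CCAAT motif (CCAAT or ATTGG) and the GC box (GGGCGG or CCGCCC), which do not overlap each other here.
Olig2, chr11:43961335-43961584, plus strand: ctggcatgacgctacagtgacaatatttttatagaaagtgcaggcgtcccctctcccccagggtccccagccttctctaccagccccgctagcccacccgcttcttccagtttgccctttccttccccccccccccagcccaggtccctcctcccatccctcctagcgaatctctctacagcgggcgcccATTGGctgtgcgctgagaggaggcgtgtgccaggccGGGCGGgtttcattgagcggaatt
Cspg4, chr8:66160692-66160941, plus strand: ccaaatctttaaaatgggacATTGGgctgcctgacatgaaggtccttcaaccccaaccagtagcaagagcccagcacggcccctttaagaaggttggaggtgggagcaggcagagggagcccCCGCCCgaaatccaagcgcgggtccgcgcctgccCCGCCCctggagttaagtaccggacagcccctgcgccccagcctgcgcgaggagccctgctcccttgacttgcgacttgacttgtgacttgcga
Gpr17, chr18:23857382-23857631, minus strand: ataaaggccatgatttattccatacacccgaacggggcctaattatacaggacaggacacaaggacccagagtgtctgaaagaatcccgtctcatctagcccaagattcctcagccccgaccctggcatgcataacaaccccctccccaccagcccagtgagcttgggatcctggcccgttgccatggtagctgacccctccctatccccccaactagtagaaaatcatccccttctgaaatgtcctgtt
Olig2 had 1 CCAAT match starting 60 bases and 1 GC box starting 24 bases before the start, and Cspg4 had 1 CCAAT match at 230 bases and 2 GC boxes at 128 and 94 bases. Gpr17 had none of these. The E-box CANNTG, the motif class bound by Olig factors, and the SOX motif ACAAAG (or CTTTGT) had 0 matches in the 3 windows. Over 33469 promoter windows of the same length and on both strands, 65.5% held the E-box, 16.3% the SOX motif, 34.02% the CCAAT motif and 30.5% the GC box.

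Every one of the 7 genes was detected in all 49 libraries, with at least 113 estimated counts. Levels are counts per 1000000 (CPM) scaled by each library's total. They are not adjusted for transcript length, so levels of different genes are not compared. Among the receptors and surface proteins, Pdgfra had 21.8 CPM at its lowest, a median of 36.4 and 52.5 at its highest, with a mean of 37.002 ± 6.49 CPM (SD, n = 49). Library 63 was lowest and library 71 next (22.1 CPM), and library 38 of series B was highest. Cspg4 ranged from 8.57 to 18.1 CPM with a median of 12.6 and a mean of 12.8 ± 2.23 CPM (SD, n = 49), lowest in library 69 and highest in library 44. Gpr17 ranged from 10.3 to 24.997 CPM with a median of 15.98 and a mean of 16.5 ± 3.35 CPM (SD, n = 49). Its lowest library was 62 and its highest 44, so both of its extremes came from libraries that stood apart.

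Among the transcription factors, Olig1 ranged from 144 to 310.5 CPM with a median of 212 and a mean of 211 ± 32.1 CPM (SD, n = 49). Olig2 ranged from 27.1 to 69.99 CPM with a median of 43.3 and a mean of 44.5 ± 9.09 CPM (SD, n = 49). The 2 highest libraries of Olig2 and the highest of Olig1 belonged to series E. Sox10 ranged from 55.6 to 149 CPM with a median of 95.2 and a mean of 95.7 ± 18.2 CPM (SD, n = 49), lowest in library 67 and highest in library 63. Bcas1 ranged from 539 to 1368 CPM with a median of 720.5 and a mean of 738 ± 158 CPM (SD, n = 49). Its highest library was again 63, with library 67 of series D second at 1210 CPM. Library 63 therefore held the highest Sox10 and Bcas1 and the lowest Pdgfra. Relative to the mean, the SD was smallest for Olig1 (15.3%) and largest for Bcas1 (21.4%), and the highest library exceeded the lowest 2.11-fold (Cspg4) to 2.69-fold (Sox10).

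**Figure D1:**
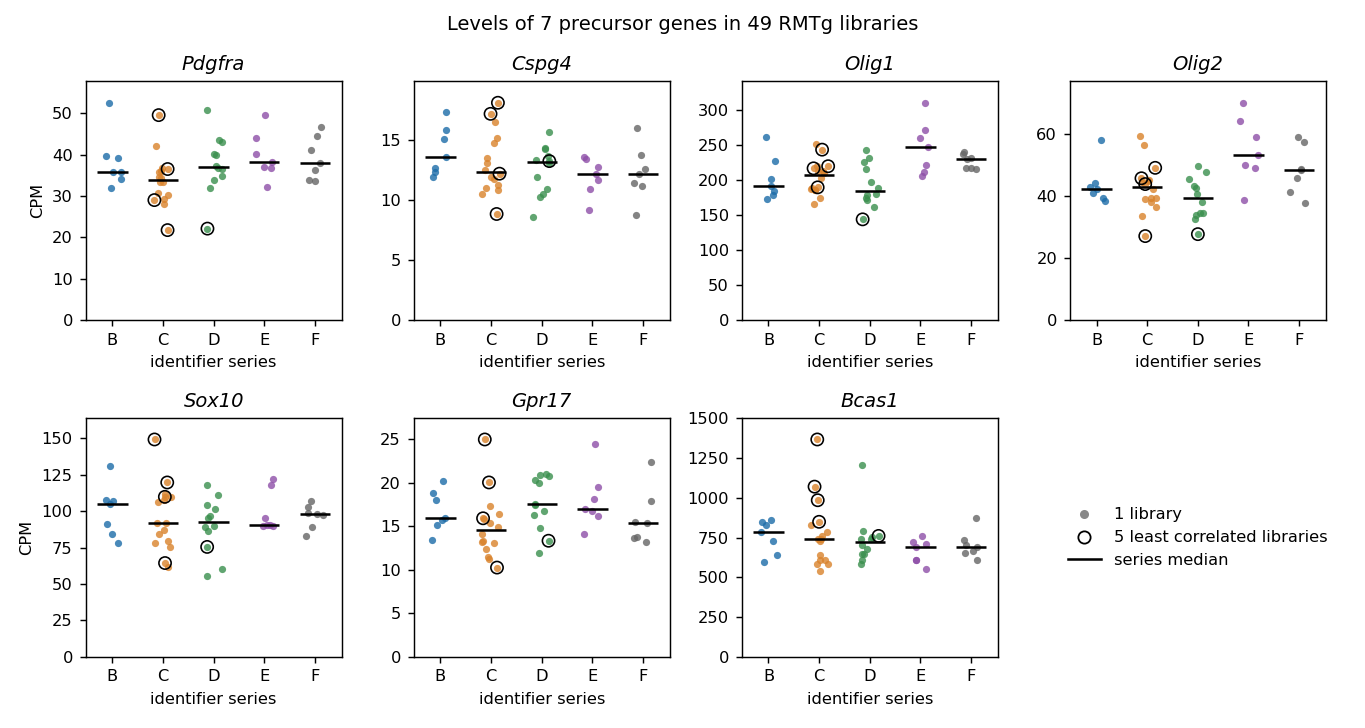
Level of each gene (CPM, y axis from 0) in 49 libraries by identifier series (x axis); each point is 1 library, lines are series medians and rings mark libraries 63, 62, 71, 45 and 44. Olig1 and Olig2 medians were highest in series E (248 and 53.2 CPM), and ringed libraries hold the lowest Pdgfra (21.8 CPM) and the highest Sox10 (149 CPM) and Bcas1 (1368 CPM).

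The series offered the only division of the libraries, and were compared to look for batches. By limma's F test across series with Benjamini-Hochberg adjustment over 18749 genes, 0 of the 7 genes were called, against 320 (1.71%) of all genes tested. At an unadjusted p under 0.05 there were 2, Olig1 (adjusted p = 0.078) and Olig2 (adjusted p = 0.090), against 14.8% of all genes. Without the 5 libraries that stood apart there were 4, with Gpr17 (adjusted p = 0.11) and Pdgfra (adjusted p = 0.28) besides, and 0 were called. Olig1 had a median of 191 CPM in series B, 207 in C, 184 in D, 248 in E and 230 in F. The order was E, F, C, B and D, and ranges of all neighbours in it overlapped. Olig2 had medians of 42.3, 42.99, 39.2, 53.2 and 48.5 CPM in series B to F, which gives the same order. Scaling by median of ratios, which sets each library by the median ratio of its genes to their geometric mean, called both (adjusted p = 0.034 for Olig1 and 0.040 for Olig2; 2.18% of all genes), and Gpr17 was then the third at an unadjusted p under 0.05 (adjusted p = 0.29). Series medians of the other genes ran from 33.9 to 38.2 CPM for Pdgfra, 12.2 to 13.6 for Cspg4, 90.5 to 105 for Sox10, 14.6 to 17.5 for Gpr17 and 689 to 786 for Bcas1.

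Whether the genes of the lineage vary together was read from all 21 pairs over the 49 libraries. A pair was called when the slope of each gene on the other passed a limma test adjusted over all 18748 other genes. Correlations are of log2 of CPM plus 1, with permutation p-values from 100000 permutations, of which 1e-05 is the smallest possible. Of the 21 pairs 17 were positive and 5 were called. Of all genes, 11% had a called positive slope on Pdgfra, 10.8% on Cspg4, 17.8% on Olig1, 14.2% on Olig2 and 23% on Sox10. The share was 1.14% on Gpr17 and 4.32% on Bcas1, and whether 5 of 21 pairs exceeds such shares was not tested. The transcription factors formed the closest group. For Olig1 and Olig2, r was 0.81 (95% interval 0.69 to 0.89) and rho 0.81, each at a permutation p of 1e-05, with a larger adjusted p of 6.7e-08 from the limma slopes. Between Olig1 and Sox10, r was 0.65 (0.45 to 0.79) and rho 0.66, each at a permutation p of 1e-05 (adjusted p = 3.2e-05). Between Olig2 and Sox10, r was 0.54 (0.30 to 0.71; permutation p = 0.00014), and rho was also 0.54 (permutation p = 0.0001; adjusted p = 0.0019). These 3 pairs were positive in each of the 5 series. In the 32 libraries dominated by LOC120093067 and Zfp532, which are not among the 49, r was 0.40 for Olig1 and Olig2 and -0.39 for Olig1 and Sox10. When the 2 most extreme libraries of the first gene were left out (those farthest from its median), r was 0.77, 0.63 and 0.52.

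Gpr17 followed Sox10, at an r of 0.58 (0.36 to 0.74; permutation p = 3e-05) while rho was 0.57 (permutation p = 2e-05; adjusted p = 0.011). This pair was positive in all 5 series (r from 0.46 in F to 0.84 in E) and had r = 0.62 without the 2 most extreme Sox10 libraries. Its call was lost when the slopes were fitted without the 2 most extreme libraries of the predictor (adjusted p = 0.087) and under median of ratios (r = 0.50, adjusted p = 0.15). For Pdgfra and Olig1, r was 0.39 (0.12 to 0.60; permutation p = 0.0059), with rho at 0.34 (permutation p = 0.016; adjusted p = 0.039). Their r within series B to F was 0.37, -0.08, 0.75, 0.70 and -0.34, so the pair was positive in 3 of 5 series, and its call was lost without the 2 most extreme libraries (adjusted p = 0.31). It was also lost with no filter on low values (adjusted p = 0.065) and with the library total (0.069), Xist and Ddx3y (0.074) or the series (0.099) as covariates, at r between 0.36 and 0.39.

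The genes most often used to mark precursors, Pdgfra and Cspg4, had no detectable relation over these libraries: r was -0.01 with a 95% interval of -0.29 to 0.27 (permutation p = 0.95) and rho 0.08 (permutation p = 0.59). Without libraries 63, 62, 71, 45 and 44 it was 0.19. Pdgfra and Sox10 likewise had an r of -0.01 (-0.29 to 0.27; permutation p = 0.94) beside a rho of 0.08 (permutation p = 0.59), with r = -0.45 in series C, where 4 of the 5 libraries that stood apart lie, and 0.26 without those 5. Cspg4 and Gpr17 were positive in all 5 series and just missed the call (r = 0.45 at permutation p = 0.0011, rho = 0.45 at permutation p = 0.0012; adjusted p = 0.067). Bcas1 was called with none of the other genes, and its lowest permutation p was 0.16 for r and 0.012 for rho, both with Sox10. Its r ran from -0.16 with Pdgfra to 0.21 with Sox10, and within series the Sox10 pair had 0.92 in B and -0.60 in D. Without the 2 most extreme Sox10 libraries the r of that pair was 0.45. The same 5 pairs were called without the 5 libraries that stood apart. The SD of the log2 ratio of a pair was smallest for Olig1 over Olig2 (0.17) and largest for Olig2 over Bcas1 (0.41).

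**Figure D2:**
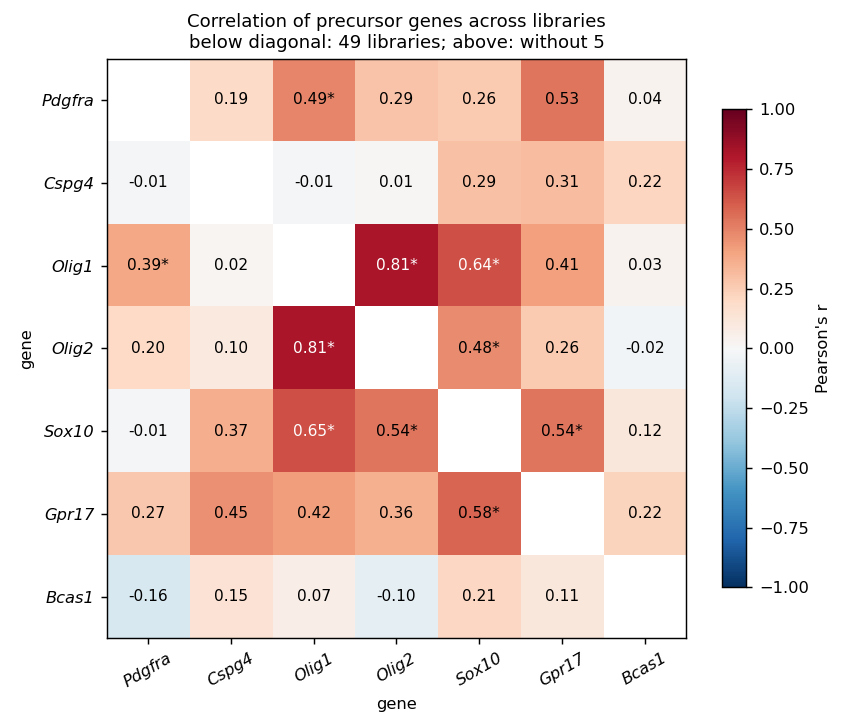
Pearson's r of log2(CPM + 1) for the 21 pairs, below the diagonal over 49 libraries and above it without libraries 63, 62, 71, 45 and 44; an asterisk marks a called pair. Olig1 and Olig2 stand out at 0.81 on either side of the diagonal, while Pdgfra and Cspg4 have r = -0.01 over 49 libraries and 0.19 over 44.

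**Figure D3:**
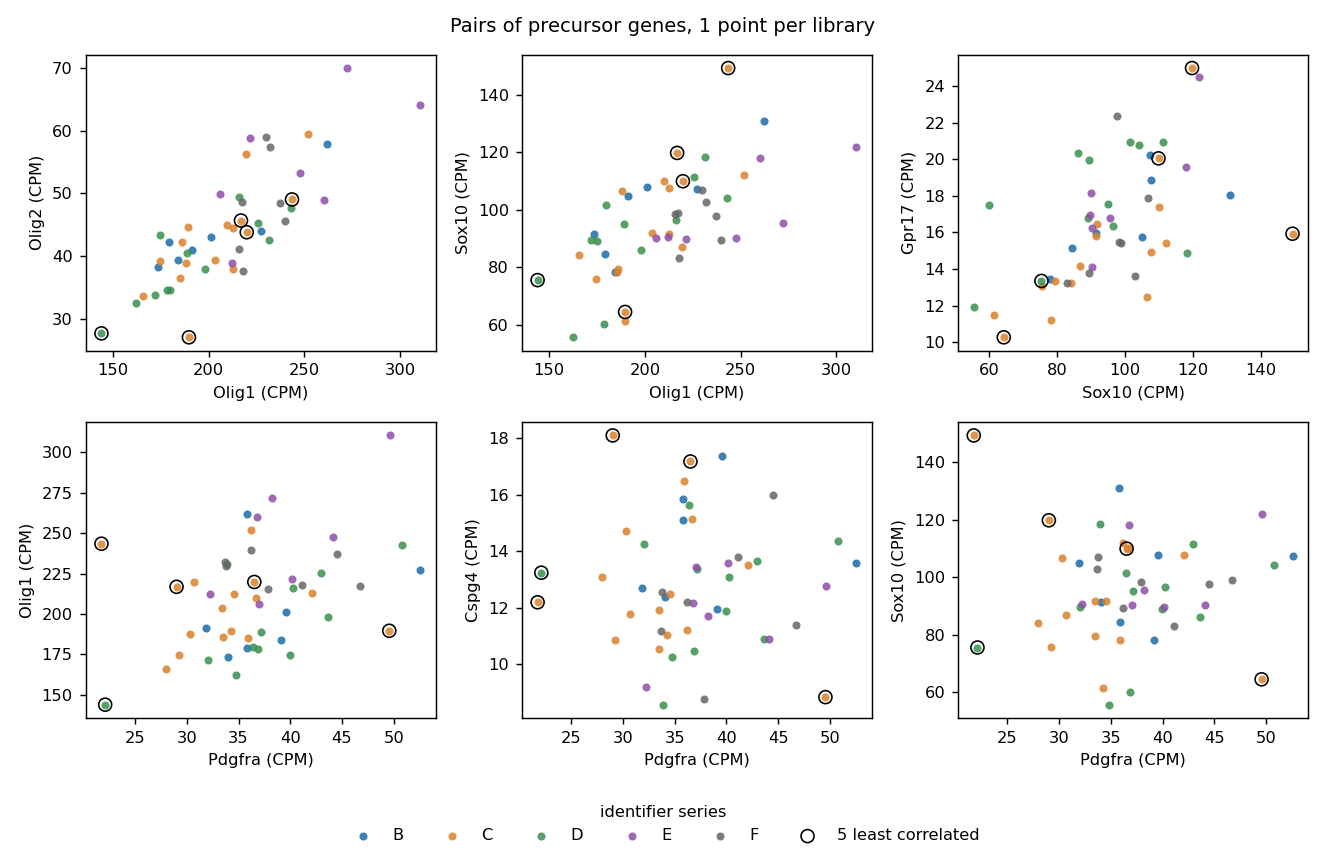
Levels (CPM) of 6 pairs of genes with 1 point per library, coloured by identifier series; rings mark the 5 libraries that stood apart. Olig1 and Olig2 (r = 0.81) lie along a line, whereas Pdgfra has r = -0.01 with Cspg4 and with Sox10.

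Each gene was then used as a predictor of every other gene, to ask which transcripts vary with it. A slope is the change in log2 of CPM plus 1 per 1 SD of the predictor, given ± SE, and a gene is said to have risen or fallen where limma's adjusted p was under 0.05. With Olig1, 3346 genes rose and 2476 fell (17.8% and 13.2% of those tested). With Olig2 2658 rose and 1460 fell (14.2% and 7.79%), and with Sox10 4309 rose and 1724 fell (23% and 9.20%). With Pdgfra 2062 rose and 1045 fell (11% and 5.57%), and with Cspg4 2020 rose and 452 fell (10.8% and 2.41%). With Gpr17 213 rose and 31 fell (1.14% and 0.165%), and with Bcas1 809 rose and 2348 fell (4.32% and 12.5%). These fits share all libraries.

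The total counts for the factors stayed within 1.5 times without the 5 libraries that stood apart: 3231 rose and 3127 fell with Olig1 (17.2% and 16.7%), 1648 and 2173 with Olig2 (8.79% and 11.6%), and 3522 and 1248 with Sox10 (18.8% and 6.66%). With Olig2 the falling genes then outnumbered the rising ones. Of genes rising over 49 libraries, the call was kept by 2693 with Olig1, 1398 with Olig2 and 3030 with Sox10. The total counts for the other genes did not stay within 1.5 times without the 5 libraries. Without them 260 rose and 54 fell with Pdgfra (1.39% and 0.288%), 130 and 22 with Cspg4 (0.693% and 0.117%), 33 and 2 with Gpr17 (0.176% and 0.0107%), and 148 and 619 with Bcas1 (0.789% and 3.30%). Leaving out libraries 63 and 71 alone, the lowest for Pdgfra, left 281 rising and 203 falling. Leaving out libraries 44 and 62, the extremes of Gpr17, left 2 genes. Counts also moved with covariates. With the levels of Xist and Ddx3y, transcripts of the X and Y chromosomes, in the fit they were 1533 for Olig1, 2164 for Olig2, 1524 for Cspg4 and 1986 for Gpr17. With the series in the fit they were 3613 for Olig1, 1958 for Olig2, 1824 for Pdgfra and 1634 for Gpr17, so the count for Gpr17 was higher with either and lower without the 5 libraries. Scaling by median of ratios gave 2409 rising and 2503 falling with Olig1 (12.8% and 13.4%), 1536 and 1632 with Olig2 (8.19% and 8.70%), and 2628 and 2459 with Sox10 (14% and 13.1%). It gave 2587 and 1648 with Pdgfra (13.8% and 8.79%), 806 and 1102 with Cspg4 (4.30% and 5.88%), and 1131 and 1310 with Bcas1 (6.03% and 6.99%). With Gpr17 it called 0 genes by limma, and 1974 were at an unadjusted p under 0.05. The median of ratios and the total differed by a factor of 0.844 to 1.08 between libraries, and the log2 of that factor had r = 0.56 with Sox10, 0.49 with Cspg4 and 0.44 with Gpr17, and -0.24 to 0.26 with the others. Its part in the counts was not tested beyond the values under both scalings.

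**Figure D4:**
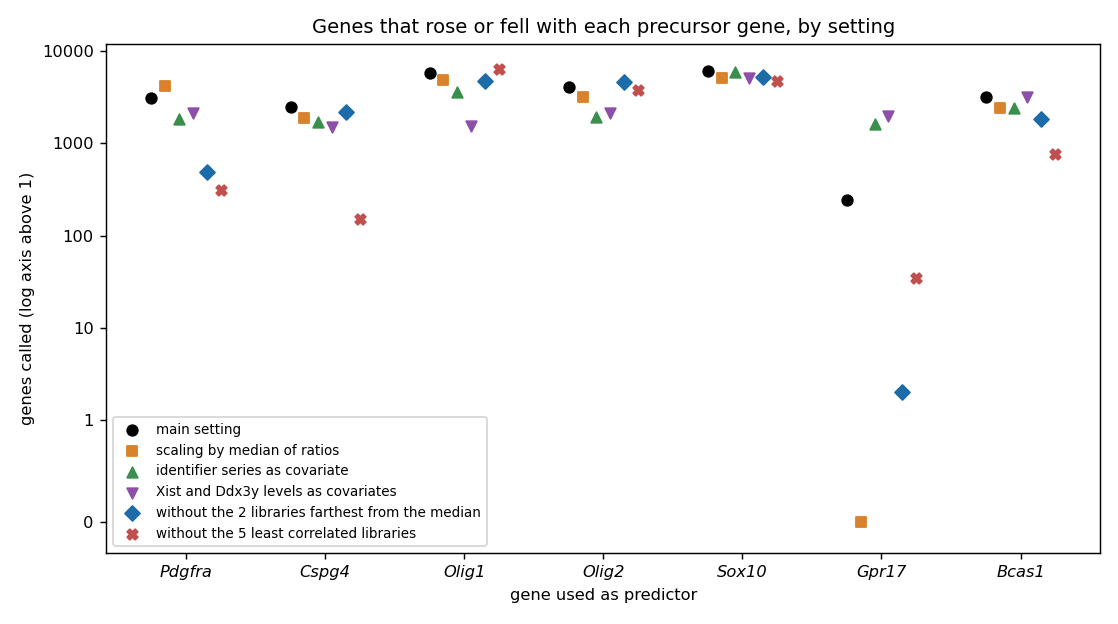
Number of genes called with each predictor (y axis, log scale above 1) over 49 libraries and under 5 alternatives. Counts for Olig1 run from 1533 to 6358, whereas leaving out 5 libraries takes Pdgfra to 314, Cspg4 to 152 and Gpr17 to 35 genes.

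Myelin genes followed the transcription factors. Of 19 myelin and mature oligodendrocyte genes, 11 rose with Olig1 and 13 with Olig2, while 11 rose and 1 fell with Sox10. Of all genes tested, 17.8%, 14.2% and 23% rose. The median slope of the list was 0.11, 0.11 and 0.13 for these predictors, against 0.01, 0.01 and 0.03 over all genes tested. Medians were 0.10, 0.09 and 0.07 for the endothelial list and 0.08, 0.05 and -0.003 for the astrocyte list. Slopes of this size with the Olig genes were therefore not particular to myelin genes. With Sox10 the medians were 0.10 for the microglial and 0.08 for the mural list. Without the 5 libraries they were 0.08 and 0.11, against 0.11 for the myelin list. Such slopes with Sox10 were thus not particular to myelin genes either. Cnp, a phosphodiesterase of the myelin sheath, had 599 to 1533 CPM over the libraries. It rose by 0.26 ± 0.03 per SD of Sox10 (adjusted p = 4.2e-09), by 0.22 ± 0.03 with Olig1 and by 0.20 ± 0.04 with Olig2. Gjb1, a connexin of oligodendrocyte gap junctions, rose by 0.21 ± 0.03 per SD of Sox10, and Myrf, the transcription factor of myelination, by 0.17 ± 0.03. Hapln2, a matrix link protein of nodes of Ranvier, rose by 0.25 ± 0.03 with Sox10. Its level spanned 339 to 1582 CPM. Mbp, a major myelin protein, was not called with any of the 3 factors. Of the rising genes 9 of 11 for Olig1, 8 of 13 for Olig2 and 7 of 11 for Sox10 were called in the same direction both without the 5 libraries and under median of ratios.

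Most called genes of the stages before myelin rose with the factors as well, against 17.8%, 14.2% and 23% of all genes rising with Olig1, Olig2 and Sox10. Of 19 newly formed oligodendrocyte genes 9 rose and 1 fell with Olig1, 7 rose and 1 fell with Olig2, and 10 rose with Sox10. Enpp6, a choline phosphodiesterase that marks newly formed cells, rose by 0.19 ± 0.04 per SD of Sox10 (adjusted p = 0.00018) and by 0.14 ± 0.04 with each Olig gene. Zfp488, a lineage co-repressor, rose by 0.19 to 0.20 with all 3 factors. The exception was Tcf7l2, a Wnt effector, which fell by 0.09 ± 0.03 with Olig1 and Olig2, a call lost without the 5 libraries and under median of ratios. Of 20 other precursor genes 7 rose with Olig1, 6 with Olig2, and 9 rose while 2 fell with Sox10. Sulf2, a heparan sulfate sulfatase, rose by 0.15 ± 0.02 with Olig1 (adjusted p = 2.7e-06). Sox8, a close relative of Sox10, rose by 0.15 ± 0.03 with Olig1 and with Sox10, and Neu4, a sialidase, by 0.16 ± 0.03 and 0.19 ± 0.03. Those that fell with Sox10 were Megf11 (by 0.09 ± 0.03) and Ptprz1 (by 0.13 ± 0.04), and the call of Ptprz1 was lost without the 5 libraries. List medians were 0.09, 0.08 and 0.11 for newly formed genes and 0.04, 0.02 and 0.10 for other precursor genes with Olig1, Olig2 and Sox10, against 0.01, 0.01 and 0.03 over all genes, so the precursor list was near all genes with Olig2.

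**Figure D5:**
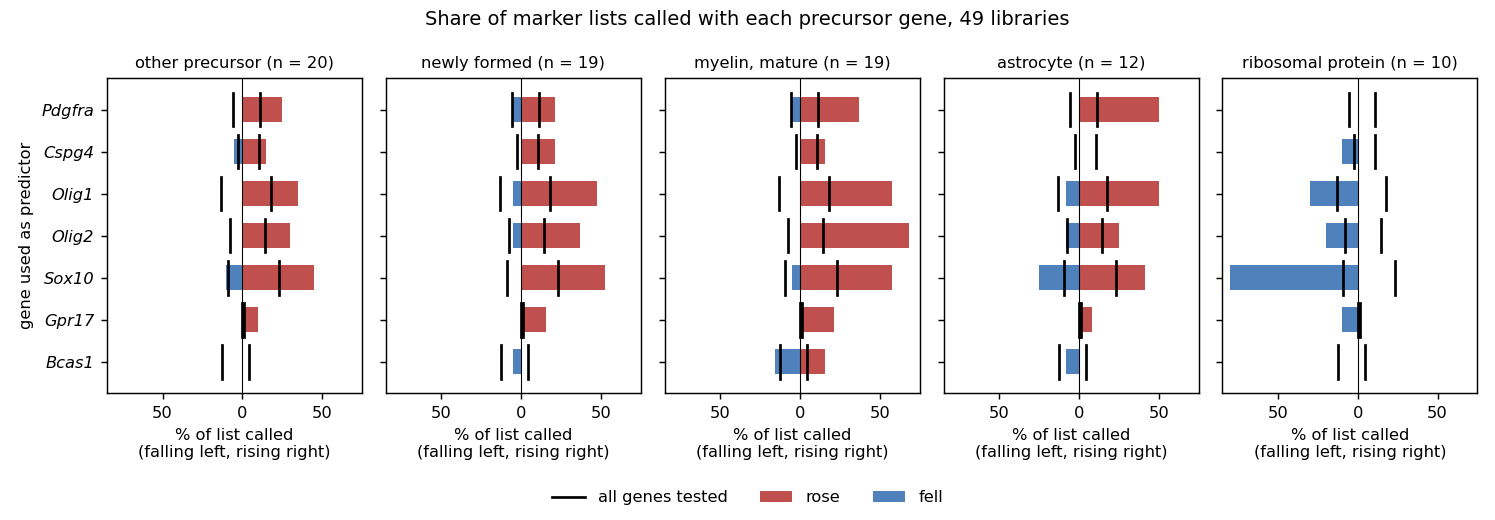
Share of each list (x axis, percent; falling to the left, rising to the right) called with each of the 7 genes as predictor (y axis) over 49 libraries; black ticks are the shares of all genes tested. Rising shares of the myelin list (11 of 19 genes with Olig1 and with Sox10, 13 of 19 with Olig2) exceed the ticks, and 8 of 10 ribosomal protein genes fell with Sox10.

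Astrocyte genes were among those that followed Pdgfra. Of the 12 astrocyte genes 6 rose with it (against 11% of all genes), with a list median of 0.09 against -0.01 over all genes. Medians with Pdgfra were 0.07 for the endothelial list, of which 2 of 11 rose, and 0.06 for the myelin list. Without the 5 libraries they were 0.102 and 0.092, against 0.095 for the astrocyte list. Slopes of this size were therefore not particular to astrocyte genes. Aqp4, the astrocyte water channel, spanned 110.5 to 681 CPM and rose by 0.28 ± 0.04 per SD of Pdgfra (adjusted p = 2.5e-05). Gja1, the astrocyte connexin 43, rose by 0.21 ± 0.03, and Slc1a2 and Slc1a3, the glial glutamate transporters, by 0.21 ± 0.04 and 0.13 ± 0.02. Aqp4, Gja1 and Slc1a3 were also called without the 5 libraries and under median of ratios. Among other precursor genes 5 of 20 rose. Ptprz1, a receptor phosphatase of precursors and astrocytes, rose by 0.22 ± 0.03 (adjusted p = 3.5e-06) and spanned 79.6 to 302 CPM. Lhfpl3 rose by 0.14 ± 0.03, a call lost without the 5 libraries. Of the myelin genes 7 rose and 1 fell, 4 of the 7 called under both alternatives, among them Ugt8, the enzyme of galactocerebroside synthesis (0.24 ± 0.04). Hapln2 fell by 0.14 ± 0.04 (adjusted p = 0.027), which was not called without the 5 libraries. Of the newly formed genes 4 rose and 1 fell. Rras2, a small GTPase, rose by 0.24 ± 0.04 and kept its call, and Itpr2 fell by 0.10 ± 0.04 and lost it.

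Pdgfra is also made by fibroblasts of the vessel wall and meninges, and Cspg4 by pericytes. Of 12 fibroblast genes 3 rose with Pdgfra, namely the proteoglycan genes Dcn (0.19 ± 0.04), Lum (0.23 ± 0.06) and Ogn (0.17 ± 0.05), and none of the 3 was called without the 5 libraries. The summed level of the fibroblast list was 33.9 to 72.8 CPM, with no gene at a median of 0, and Col1a1, the collagen I gene, had a median of 1.32 CPM. Of 11 mural genes 1 rose with Pdgfra and 1 with Cspg4, no larger a share than of all genes (11% and 10.8%). The call with Pdgfra was Rgs5, a pericyte regulator of G protein signalling, with a slope of 0.22 ± 0.06 (adjusted p = 0.011), lost without the 5 libraries (adjusted p = 0.054). The call with Cspg4 was Myh11, smooth muscle myosin, with a slope of 0.23 ± 0.06 (adjusted p = 0.013) and 4.22 to 30.6 CPM, lost without the 5 libraries. The summed mural level was 48.7 to 123 CPM, and Cnn1 was the 1 gene with a median under 1 CPM. The part of these cells in the levels of Pdgfra and Cspg4 was not tested.

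Fewer lineage genes passed the adjusted threshold with Cspg4, Gpr17 and Bcas1, a difference between predictors that was not tested. With Cspg4 10.8% of all genes rose and 2.41% fell. Of the lists 3 of 19 myelin genes, 4 of 19 newly formed genes and 3 of 20 other precursor genes rose with it. Lhfpl3 was the 1 precursor gene that fell (by 0.09 ± 0.03). Those that rose included the precursor adhesion gene Pcdh15 (0.14 ± 0.04), the matrix genes Vcan (0.11 ± 0.04) and Tnr (0.08 ± 0.03), and Mag, a myelin adhesion protein (0.17 ± 0.05). None of these calls was kept without the 5 libraries, and their medians (0.04 for each list) were near that of all genes (0.03). With Gpr17 4 myelin, 3 newly formed and 2 precursor genes rose, against 1.14% of all genes. At an unadjusted p under 0.05 these were 13 of 19, 12 of 19 and 10 of 20, against 2861 of all 18748 genes, and the list medians were 0.10, 0.11 and 0.07 against 0.02 over all genes. The endothelial and mural medians with Gpr17 were 0.10 and 0.08, so slopes of this size were not particular to lineage genes. Without the 5 libraries the endothelial median was 0.12, against 0.10, 0.08 and 0.06 for the lineage lists. With Olig1 the unadjusted rising counts were 14, 10 and 8, against 4447 of all 18748 genes. No test compared the 2 predictors. The genes called with Gpr17 by limma included Cnp (0.18 ± 0.04, adjusted p = 0.014), Enpp6 (0.17 ± 0.04) and Bmp4, a ligand that holds back differentiation (0.20 ± 0.04). Without the 5 libraries Cnp and Enpp6 were called, and Bmp4 was not. With Bcas1 3 of 19 myelin genes rose and 3 fell, against 4.32% and 12.5% of all genes. Among those that rose were Mobp and Mbp, myelin basic proteins, by 0.20 ± 0.04 (adjusted p = 0.00045) and 0.15 ± 0.04 (adjusted p = 0.0038). Apod, Anln and Ugt8 fell by 0.15 each. Of these 6, Mobp alone was called without the 5 libraries.

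Among signals that act on the lineage, Pdgfa, the ligand of the Pdgfra receptor, rose by 0.14 ± 0.03 with Sox10 (adjusted p = 2.4e-05) and by 0.10 ± 0.03 with Olig1. With Pdgfra itself the ligand genes Pdgfc (0.17 ± 0.04) and Pdgfd (0.23 ± 0.04) rose, calls lost without the 5 libraries. In all 2 of 6 genes of the ligand and receptor list rose with Pdgfra, 2 with Sox10 and 1 with Olig1. The shares of all genes rising with these predictors were 11%, 23% and 17.8%. Of 9 hedgehog and patterning genes 3 rose and 1 fell with Sox10, against 23% and 9.20% of all genes. Nkx6-2, a homeobox gene of myelinating cells, rose by 0.23 ± 0.03 (adjusted p = 3.6e-08) and Hhip, a hedgehog antagonist, by 0.22 ± 0.05, while Nkx6-1 fell by 0.16 ± 0.04. Of 11 genes listed for the control of differentiation, 2 rose and 2 fell with Olig1, and 1 rose and 3 fell with Olig2. With Sox10 3 of them rose and 1 fell. Of all genes 17.8% rose and 13.2% fell with Olig1, 14.2% and 7.79% with Olig2, and 23% and 9.20% with Sox10. The counts with Olig1 and Sox10 lie near these shares, as does the 1 rising with Olig2. Of the 3 rising with Sox10 1, Lingo1, was called without the 5 libraries. The Notch ligand Jag1 fell with all 3 (by 0.18 ± 0.04, 0.19 ± 0.04 and 0.17 ± 0.04), and the Wnt target Axin2 fell by 0.24 ± 0.05 with Olig1 and 0.19 ± 0.05 with Olig2. These calls of Jag1 and Axin2 were kept without the 5 libraries and under median of ratios. Gpr37, a receptor of the lineage, rose by 0.15 ± 0.03 with Olig1 and 0.17 ± 0.03 with Pdgfra.

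Genes of other cell types were also called with the factors, at shares to be read against the 17.8%, 14.2% and 23% of all genes that rose with Olig1, Olig2 and Sox10. The shares of all genes that fell with them were 13.2%, 7.79% and 9.20%. Of 12 astrocyte genes 6 rose and 1 fell with Olig1, 3 rose and 1 fell with Olig2, and 5 rose and 3 fell with Sox10. Those that fell with Sox10 were Slc1a2 (0.17 ± 0.04 per SD), Slc4a4 (0.17 ± 0.04) and Sox9 (0.13 ± 0.04), and all 3 calls were lost without the 5 libraries. Of 12 neuronal genes 4 rose with Olig1, among them the synaptic vesicle genes Syn1 (0.18 ± 0.03) and Syp (0.13 ± 0.03), and with Sox10 3 rose and 1 fell, near the share of all genes. Endothelial genes rose in 5 of 11 with Olig1 and Olig2, of which 4 and 2 were called without the 5 libraries. Pecam1, Emcn and Tie1 lost the call with Olig2 (adjusted p = 0.11, 0.47 and 0.075). With Sox10 2 rose, under the share of all genes, led by the receptor gene Tie1 (0.27 ± 0.04 with Sox10). Microglial genes rose in 3 of 12 and fell in 1 with Olig1, and rose in 5 and fell in 1 with Sox10, and the falling calls were lost without the 5 libraries. In the Schwann cell list Pmp22 was the 1 of 5 that rose with Olig1 and with Sox10, and Prx, Ncmap and Egr2 had medians under 1 CPM. Of 10 proliferation genes, 2 rose with Pdgfra (against 11% of all genes), Pcna (0.17 ± 0.03) and Ccnb1 (0.14 ± 0.05), both lost without the 5 libraries. Of 10 ribosomal protein genes 8 fell with Sox10, and 6 of the 8 kept the call under both alternatives. With Olig1 3 and with Olig2 2 of them fell, and none of these was kept without the 5 libraries. The summed level over the libraries was 2090 to 3596 CPM for the astrocyte list, 3044 to 4589 for the neuronal list and 1791 to 3462 for the ribosomal list. The part of these lists in the relations of the 7 genes was not tested.

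Whether genes follow Sox10, in use throughout the lineage, more than Pdgfra, the precursor receptor, was tested by the difference of their slopes in a joint limma fit. Of 18747 genes 3895 (20.8%) had a higher slope with Sox10 and 2413 (12.9%) with Pdgfra. Without the 5 libraries that stood apart these were 662 (3.53%) and 213 (1.14%), and under median of ratios 2784 (14.9%) and 3266 (17.4%). None of the other 5 genes differed by limma at the adjusted threshold, nor at an unadjusted p under 0.05. Olig1 had a difference of 0.06 ± 0.03 (adjusted p = 0.16) and Olig2 of 0.09 ± 0.05 (adjusted p = 0.12). Of the myelin genes 6 were higher with Sox10 and 2 with Pdgfra, and under median of ratios 5 and 3. The median difference of this list was 0.07 against 0.04 over all genes. Without the 5 libraries it was 0.023 against 0.026. Hapln2 differed by 0.38 ± 0.04 (adjusted p = 2.8e-09) and Gjb1 by 0.23 ± 0.04, and both were called without the 5 libraries as well. Cldn11 (-0.18 ± 0.04) and Ugt8 (-0.17 ± 0.06) lay on the side of Pdgfra and were not. In the astrocyte list 5 of 12 were higher with Pdgfra and none with Sox10 (7 and none at an unadjusted p under 0.05). Slc1a2 differed by -0.38 ± 0.04 (adjusted p = 1.4e-09), Slc4a4 by -0.37 ± 0.04 and Aqp4 by -0.40 ± 0.06, and Aqp4 was not called without the 5 libraries. Among precursor genes 4 were higher with Sox10 and 3 with Pdgfra, and Ptprz1, at -0.35 ± 0.03 (adjusted p = 1.2e-09), was the 1 called without the 5 libraries. Nkx6-2 (0.30 ± 0.04), Lingo1 (0.14 ± 0.03), Rbfox3 (0.20 ± 0.04) and Syn1 (0.18 ± 0.04) were higher with Sox10 both with and without them. Of the ribosomal genes 7 of 10 were higher with Pdgfra over 49 libraries, and these 7 calls were lost over 44.

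The genes closest to each of the 7 were taken as the 4 highest and 2 lowest correlations among called genes with the same sign in every series. As they were picked by r in these same libraries, their r and permutation p describe them and add no support. Sox10 had the closest neighbours: Aplp1, an amyloid precursor-like protein, had r = 0.91 and rho = 0.86, each at a permutation p of 1e-05, and rose by 0.23 ± 0.02 per SD. The sorting protein gene Pacs2 (r = 0.90), the receptor kinase gene Tyro3 (0.88) and Wscd1 (0.87) followed. Ndufc1, a subunit of respiratory complex I, fell by 0.21 ± 0.02 and the chaperone gene Hsp90aa1 by 0.20 ± 0.02 (r = -0.83 and -0.82). Next to Olig1 stood Olig2, the lysosomal membrane gene Lamp1 (r = 0.77), Desi1 (0.76) and the adenosine receptor gene Adora1 (0.75), and Phf14 (-0.76) and Mnat1 (-0.73) fell. Next to Olig2 stood Olig1, Plekhf1 (r = 0.78), Arrdc2 (0.78) and Spsb1 (0.74), and Phf14 (-0.74) and Cwf19l2 (-0.67) fell. Arrdc2, an arrestin-domain gene, had the steepest of these slopes, 0.42 ± 0.05 per SD of Olig2. Each of these genes was called under all 9 alternatives.

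Nearest to Pdgfra were Gpm6b, a proteolipid-family membrane protein (r = 0.76, permutation p = 1e-05; rho = 0.64, permutation p = 1e-05), the calcitonin receptor-like gene Calcrl (r = 0.75), Ptprz1 (0.74) and Abhd3 (0.73), with Ccl27 (-0.65) and Lin7b (-0.64) opposite. All but Lin7b were called under the 9 alternatives, though r fell to 0.58, 0.56, 0.53 and 0.57 for the rising ones without the 5 libraries. Nearest to Cspg4 were the phosphatase gene Ptpn9 (r = 0.70), the centrosomal gene Cep250 (0.62), Otud7b (0.61) and the axonal kinesin gene Kif1a (0.61), with Cetn4 (-0.63) and Nsmce3 (-0.62) opposite, and all but Nsmce3 were called under the 9 alternatives. Nearest to Gpr17 were Prag1 (r = 0.65), the adenylyl cyclase gene Adcy5 (0.64), Dock6 (0.63) and Slc22a23 (0.63), with Nsmce3 (-0.65) and Cetn4 (-0.63) opposite as for Cspg4. None of these 6 was called with Gpr17 under median of ratios (adjusted p from 0.11 to 0.15). Nearest to Bcas1 were the mitochondrial kinase gene Pink1 (r = 0.76), Plekhm2 (0.74), Tp53inp2 (0.68) and Mbd3 (0.68), with Lsm1, of messenger RNA decay, and Bcap31, of the endoplasmic reticulum, lowest (-0.84 each). These 6 were called under all 9 alternatives.

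Ranked by their median r over the 7 fits, as a description, the highest genes were Sema4d (0.57), a semaphorin, Pacs2 (0.56), Mvk (0.56), Scarb1 (0.55), Fam234a (0.55), Cnp (0.55), Neu4 (0.55) and Dhcr7 (0.55). Mvk and Dhcr7 encode enzymes of cholesterol synthesis and Scarb1 a lipoprotein receptor. Their r was highest with Sox10 for 7 of the 8 and low with Pdgfra (0.00 to 0.26) and Bcas1 (-0.32 to 0.21). The lowest medians were Mnat1 (-0.49), Micu3 (-0.48), Mrpl41 (-0.46) and Itgb3bp (-0.45).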

How the data were processed

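RNA of 93 RMTg samples was sequenced, and 92 have a column of values. The deposited table gives log2 values, made with kallisto 0.48 per the submitters' processing notes. Judged by the values, they are log2 of estimated counts plus 1. Once this was undone, 49.98% of values between 0 and 20 were whole within 0.01, so reads were not recovered. The genome build is not given in the sources used here.

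Values were back-transformed, scaled to CPM and taken as log2 with a pseudocount of 1. Genes with at least 1 on that scale in 20% of libraries were kept. Slopes, F tests and the slope contrast were fitted with limma 3.58.1 in R 4.3.3 (mean trend), with Benjamini-Hochberg adjustment over all genes and a threshold of 0.05, and were tested on simulated data. Permutations numbered 100000. No 2 libraries were duplicates (1176 pairs, chi-square per gene at least 7.38). Depth sets the precision of each level, and counting error was not modelled apart from it.

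The 7 genes, the 16 lists and the alternatives were chosen with earlier results of these data known, and leaving out 5 libraries was chosen after seeing the data. Named are the 7 genes, list genes, per gene the 4 highest and 2 lowest r among called genes of 1 sign in every series, and the 8 highest and 4 lowest median r. Uncharacterised loci (LOC, RGD, AABR and ENSRNOG symbols, and Rik names) were skipped. The symbols Tmem2, Trf and Ly6c1 were not used here. Single values of some list genes are not reported here.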

Additional observations from a re-analysis of the deposited data

Results flagged for a closer look

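Libraries outside the 49 also held these transcripts. In the 32 libraries dominated by LOC120093067 and Zfp532, Pdgfra, Cspg4, Olig1, Olig2, Sox10 and Bcas1 were above 3 estimated counts, the limit that a count of 0 allows, in 32 of 32 libraries each, and Gpr17 in 31. In the 11 libraries dominated by Nif3l1, Bcas1 was above it in 10, Olig1 in 7, Pdgfra in 6, Sox10 in 5, Olig2 in 4 and Gpr17 in 2, and Cspg4 reached at most 2 estimated counts. With totals that exclude the dominant features, medians were 52.9 CPM for Pdgfra, 347 for Olig1, 46.8 for Sox10 and 552 for Bcas1 in the 32 libraries, and 1.33, 3.50, 2.02 and 7.39 CPM in the 11. Within series B, library 38 was far above the others for Pdgfra (52.5 CPM, the next 39.6) and library 32 for Olig2 (57.9 CPM, the next 44.04). These were 2 of 21 groups of a gene and a series, and chance gives about 1 in 20.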

How the results depend on the processing

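The number of called pairs, 5 over 49 libraries, was 8 with Xist and Ddx3y levels as covariates and 3 without the 2 most extreme libraries of the predictor. Of the 5 pairs, 4 were among the 8, and 4 were called with no filter, under median of ratios and with the library total or the series as covariate. Genes moving with a predictor numbered 3107 for Pdgfra, 2472 for Cspg4, 5822 for Olig1, 4118 for Olig2, 6033 for Sox10, 244 for Gpr17, 3157 for Bcas1 and 6308 for the slope difference. With Xist and Ddx3y as covariates they were 1524 for Cspg4, 1533 for Olig1, 2164 for Olig2 and 1986 for Gpr17, and with the series as covariate 1824 for Pdgfra, 3613 for Olig1, 1958 for Olig2 and 1634 for Gpr17. Without those 2 libraries they were 484 for Pdgfra, 2 for Gpr17 and 1820 for Bcas1, and without libraries 63, 62, 71, 45 and 44 they were 314 for Pdgfra, 152 for Cspg4, 35 for Gpr17, 767 for Bcas1 and 875 for the slope difference. For Gpr17 they were 102 with no filter on low values, 0 under median of ratios (1974 at an unadjusted p under 0.05) and 135 without the library of a corrected identifier. Genes among the 7 called between series were 2 under median of ratios, against 0. The cause of these differences was not tested. The fits with covariates and under median of ratios used the same 49 libraries and genes as the main fits. All other counts of called pairs, of genes moving with a predictor and of the 7 genes called between series stayed within 1.5 times. Of the counts called within the gene lists, 672 stayed within 1.5 times and 273 did not. In the 32 libraries dominated by LOC120093067 and Zfp532, Olig1 and Sox10 had r = -0.39, the 1 pair whose called direction turned. Of the values for nearest genes 364 kept direction and side of the threshold, and 14 were no longer past it. No paired analysis was possible because the labels give 1 group and no replicate numbers. Depth was at least 9.55 M counts per library and limits Cspg4 most, at 113 estimated counts in its lowest library.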
